A study of Mus musculus with 6 samples.

Results

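The genes described here are 7 genes of the MHC class II antigen presentation machinery, measured by RNA-seq in mouse cerebral cortex at 2 ages. They are Cd74, which encodes the invariant chain, the classical class II chains H2-Aa, H2-Ab1 and H2-Eb1, the peptide editor chains H2-DMa and H2-DMb1, and the class II transactivator Ciita. They were picked by gene symbol, all 7 were found among the 55421 genes deposited, and all 7 had at least 10 counts over the libraries, the minimum for testing. The animals were wild-type (WT) male C57BL/6J mice under isoflurane anesthesia, 3 of them 6 months old (mice 10, 11 and 17) and 3 of them 24 months old (mice 2, 4 and 5). Each mouse gave 1 library of its whole cortex RNA, made from 10 ng of total RNA with a low-input kit. Values of a gene in such bulk tissue mix all cell types, and fewer cells of a type cannot be told apart from less RNA per cell.

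MHC class II molecules present peptides from engulfed or endosomal proteins to CD4+ T cells. An α and a β chain assemble in the endoplasmic reticulum on the invariant chain, which blocks the peptide groove and steers the complex to endosomes. There proteases cut the invariant chain down to a small peptide, CLIP, and H2-DM exchanges CLIP for antigenic peptide, while H2-DO restrains H2-DM. Ciita does not bind DNA itself. It docks on the RFX, NF-Y and CREB proteins that sit on the X and Y boxes of class II promoters, and interferon gamma is the classical inducer of its expression. In the brain, class II is known from microglia, from macrophages and dendritic cells at the borders of the tissue, and from B cells. C57BL/6 mice carry the b haplotype, in which H2-Ea is not functional, so that H2-Eb1 has no partner at the cell surface.

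Several of these genes share a promoter element, which the sequences below show. The RefSeq promoter windows (GRCm38.p6, from 250 bases before to 50 bases after a gene start) hold 4 of the 7 genes, namely H2-Aa, H2-Eb1, H2-DMa and H2-DMb1. They were searched on both strands for an X core (CTNGNAAC) followed after 20 to 35 bases by a Y core (ATTGG). These letters were settled after the class II promoters had been read, so the matches are a description. H2-Aa, H2-Eb1 and H2-DMb1 held the pair. Of the other class II genes in the table, H2-Ob, the β chain of H2-DO, held it, and H2-Oa, H2-DMb2 and H2-Eb2 did not. The 3 windows below are printed 5′ to 3′ on the strand of the gene, with 10 bases on each side and with the X core and the Y core in capitals. H2-Aa lies at chr17:34287857-34287917 on the minus strand, H2-Eb1 at chr17:34305763-34305822 on the plus strand and H2-Ob at chr17:34238805-34238862 on the plus strand.
H2-Aa: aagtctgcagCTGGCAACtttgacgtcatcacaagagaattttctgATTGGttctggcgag
H2-Eb1: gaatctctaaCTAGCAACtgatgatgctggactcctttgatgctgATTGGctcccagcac
H2-Ob: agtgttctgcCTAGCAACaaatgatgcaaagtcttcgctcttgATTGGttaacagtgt
Over all 32851 promoter windows, 61 held the pair (0.186%), whereas the X core alone was in 13.2% and the Y core alone in 37.4%. Neither of the windows of H2-DMa held it.

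The authors counted reads on exons, and totals ran from 29495379 to 36494240 counts per library. TPM values, which divide by exonic length and allow levels of different genes to be compared, are given for levels. Fold changes were fitted to the counts with edgeR's quasi-likelihood test after TMM scaling (a correction for RNA composition, with factors of 0.921 to 0.946 at 6 months and 1.04 to 1.10 at 24 months) and are log2, 24 against 6 months. Adjusted p-values are Benjamini-Hochberg values over all 32905 genes tested, and 1% FDR is the threshold in the study's methods. For its heatmap and functional gene lists the study used a stricter one. The study did report differentially expressed genes at 1% FDR. In the quasi-likelihood test used here no gene (0 of 32905) passed 1% FDR, although 17.6% of the genes tested were higher at an unadjusted p under 0.05. Other tests called more genes at 1% FDR, namely 1703 for edgeR's likelihood ratio test, 1122 for its exact test and 278 for the Wald test of DESeq2. The 24-month libraries also carried more counts on genes that had few counts at 6 months. Over 1831 sensory receptor genes there were 0.0220 to 0.0248 CPM per exonic kb at 6 months and 0.0530 to 0.0853 at 24 months. The study itself reads sensory perception genes as activated with age. Here the counts on sensory receptor genes are taken as a background, and whether they are one was not tested. The counts expected from this background are given beside the lowest genes described.

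Cd74 was the most abundant of the 7 genes at both ages. Its product is the chaperone of class II chains and also a receptor for the cytokine MIF. The level was 15.7, 25.5 and 46.3 TPM in the 6-month mice 10, 11 and 17, and 103.6, 100.7 and 38.0 TPM in the 24-month mice 2, 4 and 5. Mice 2 and 4 lay above every 6-month mouse, but the 24-month mouse 5 lay below the 6-month mouse 17, so the ages overlapped. The means were 29.2 ± 15.7 and 80.8 ± 37.1 TPM (SD, n = 3 mice each). The fit gave a log2 fold change of 1.36 with a standard error of 0.42 (adjusted p = 0.0758, edgeR quasi-likelihood test), which is 2.56-fold. In counts this was 232, 418 and 723 against 1482, 1537 and 570. Cd74 is on chromosome 18 and shares 12 exonic bases with Mir5107, a gene with at most 1 count in a library.

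**Figure D1:**
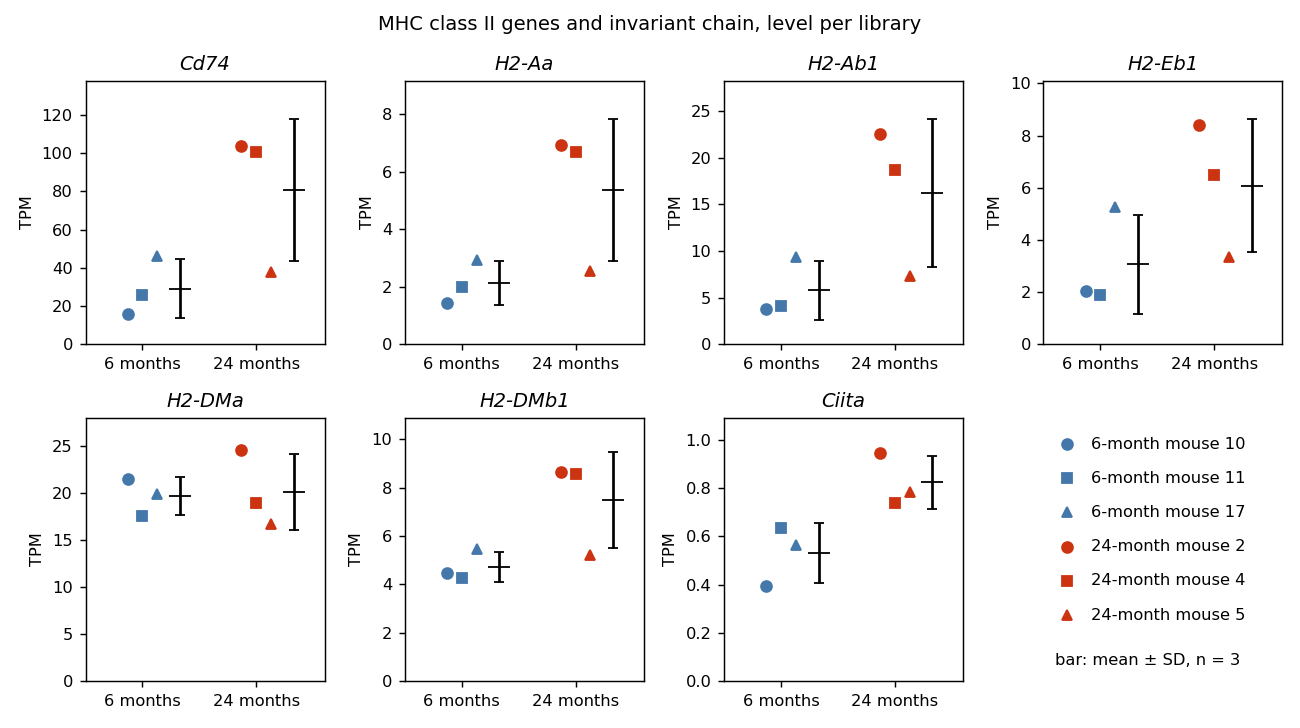
Level (TPM, linear axes from 0) of the 7 genes in each library, with 6-month mice in blue, 24-month mice in red and the mean ± SD of the 3 mice of an age beside them. In Cd74, H2-Aa, H2-Ab1, H2-Eb1 and H2-DMb1, the 24-month mice 2 and 4 lie above all 6-month mice and the 24-month mouse 5 lies below the 6-month mouse 17; in Ciita the ages are apart, and in H2-DMa they overlap.

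The 3 classical class II chains had the same order of mice at 24 months as Cd74, at lower levels. H2-Aa encodes the α chain and H2-Ab1 the β chain of I-A, the class II molecule that C57BL/6 mice do display. H2-Ab1 (chromosome 17 from 34257689 to 34269419, GRCm38) stood at 3.80, 4.15 and 9.38 TPM in the 6-month mice 10, 11 and 17 and at 22.6, 18.7 and 7.32 TPM in the 24-month mice 2, 4 and 5. H2-Aa (chromosome 17 from 34282744 to 34287823) had 1.43, 2.00 and 2.95 TPM at 6 months and 6.93, 6.69 and 2.53 TPM at 24 months. In both genes the 24-month mice 2 and 4 were above all 6-month mice, whereas mouse 5 fell within their range. The log2 fold change was 1.37 for H2-Ab1 (standard error 0.43, adjusted p = 0.0771) and 1.22 for H2-Aa (standard error 0.37, adjusted p = 0.0746, both in edgeR's quasi-likelihood test), or 2.59-fold and 2.34-fold.

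H2-Eb1, the β chain of I-E (chromosome 17 from 34305867 to 34316674), was measured at 2.04, 1.90 and 5.26 TPM in the 6-month mice and at 8.40, 6.51 and 3.34 TPM in the 24-month mice 2, 4 and 5. The 6-month mouse 17 was again the highest of its age and the 24-month mouse 5 the lowest of its own. The log2 fold change of 0.87 had a standard error of 0.42 (adjusted p = 0.190, edgeR quasi-likelihood test), and its unadjusted p was above 0.05.

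The chains kept similar proportions within each library. H2-Aa was 0.307 to 0.481 of H2-Ab1 in TPM over the 6 libraries, with 0.391 ± 0.0844 at 6 months and 0.337 ± 0.0267 at 24 months (SD, n = 3 each). Cd74 was 4.13 to 6.15 times H2-Ab1, with means of 5.07 ± 1.02 and 5.05 ± 0.413. The ratio of H2-Eb1 to H2-Ab1 was 0.518 ± 0.0541 at 6 months and 0.392 ± 0.0570 at 24 months, with the lowest 6-month value (0.457) just above the highest 24-month value (0.456).

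H2-DMa and H2-DMb1 form the editor that loads peptide onto class II. H2-DMa (chromosome 17 from 34119541 to 34139101) was at 21.6, 17.5 and 20.0 TPM in the 6-month mice and at 24.6, 19.0 and 16.8 TPM in the 24-month mice. The ages overlapped, with mouse 2 the highest and mouse 5 the lowest of all libraries and with means of 19.7 ± 2.03 and 20.1 ± 4.05 TPM (SD, n = 3). The fit gave -0.08 on the log2 scale, with a standard error of 0.16 (adjusted p = 0.744, edgeR quasi-likelihood test), and it gave the other sign, 0.12, when counts were scaled by library totals alone. H2-DMa shares 360 exonic bases with Brd2 on the opposite strand, which had 3925 to 5377 counts per library. The stated counting does not use strand, so reads there cannot be told apart, and the part of Brd2 in the H2-DMa value was not tested.

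H2-DMb1 (chromosome 17 from 34153072 to 34160230) had 4.45, 4.27 and 5.44 TPM at 6 months and 8.66, 8.57 and 5.19 TPM at 24 months. As in the classical chains, the 24-month mice 2 and 4 stood above all 6-month mice and mouse 5 did not. The log2 fold change of 0.55, with a standard error of 0.23, had an unadjusted p under 0.05 (adjusted p = 0.141, edgeR quasi-likelihood test). H2-DMa was 4.85, 4.11 and 3.67 times H2-DMb1 in the 6-month mice and 2.84, 2.21 and 3.23 times in the 24-month mice, and these ratios did not overlap between ages. How often the ratios of other gene pairs do so was not tested. Relative to H2-Ab1, H2-DMa was 5.68, 4.23 and 2.13 times as high at 6 months and 1.09, 1.01 and 2.29 times at 24 months, where mouse 5 lay among the 6-month mice.

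Ciita, the transactivator of all these genes (chromosome 16 from 10480059 to 10528418), was the lowest of the 7. Its level was 0.392, 0.634 and 0.564 TPM in the 6-month mice 10, 11 and 17 and 0.948, 0.738 and 0.786 TPM in the 24-month mice 2, 4 and 5, from 33 to 77 counts per library. All 24-month mice were above all 6-month mice, which in TPM was so for 25.8% of all genes tested, in CPM for 20.0% of them and in CPM for 5.32% of those above 1 CPM, Ciita among the last. The fit gave 0.52 on the log2 scale, again with a standard error of 0.23 and an unadjusted p under 0.05 (adjusted p = 0.157, edgeR quasi-likelihood test). Of the Ciita counts, the background set by sensory receptor genes would make up 13.4% to 19.7% at 6 months and 25.7% to 37.03% at 24 months, against at most 8.02% in any library for each of the other 6 genes. With this background taken off, 26.5, 51.1 and 42.3 counts were left at 6 months and 50.6, 40.3 and 49.8 at 24 months. The ages then overlapped, and the log2 fold change was 0.35 (adjusted p = 0.596, same edgeR test). Ciita also shares 329 exonic bases with Dexi on the opposite strand, to which 152, 307 and 1208 counts were given in the 6-month mice 10, 11 and 17, against 1187, 724 and 336 in the 24-month mice 2, 4 and 5. Its part in the Ciita value was not tested.

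Over the 7 genes, 6 were fitted higher at 24 months and none passed 1% FDR in edgeR's quasi-likelihood test, in its exact test, in DESeq2, or in its likelihood ratio test, which called 4.41% of all genes higher. Cd74, H2-Aa and H2-Ab1 passed 10% FDR, where 10.0% of all genes tested and 2.43% of the 15761 genes above 1 CPM were called higher. At an unadjusted p under 0.05, 5 of the 7 were higher, against 17.6% of all genes and 4.23% of those above 1 CPM. The median log2 fold change of the 7 genes was 0.87, beside 0.15 over all genes tested and -0.14 over genes above 1 CPM. Scaling by library totals alone moved the last 2 medians to 0.34 and 0.05 and that of the 7 genes to 1.07, and 5 of the 7 then passed 10% FDR (background 12.5%). With the background taken off, 4 of the 7 were higher at an unadjusted p under 0.05, against 6.53% of the genes tested in that way, and the log2 fold changes of Cd74, H2-Aa and H2-Ab1 were 1.52, 1.37 and 1.54.

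The number of calls at 10% FDR, over these genes and over all genes, changed with single mice. Without the 24-month mouse 5, 5 of the 7 passed (background 14.0% of genes called higher), and Cd74 was then at 1.70 on the log2 scale (adjusted p = 0.0336, edgeR quasi-likelihood test). Without the 6-month mouse 17, 4 passed (background 3.81%), and H2-Eb1 was at 1.51 (adjusted p = 0.0929, same test). None of the 7 passed when any 1 of the 6-month mice 10 and 11 or the 24-month mice 2 and 4 was left out. In these fits 0, 1, 72 and 0 genes of the whole table were called higher, so that hardly any gene passed in 3 of the 4.

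**Figure D2:**
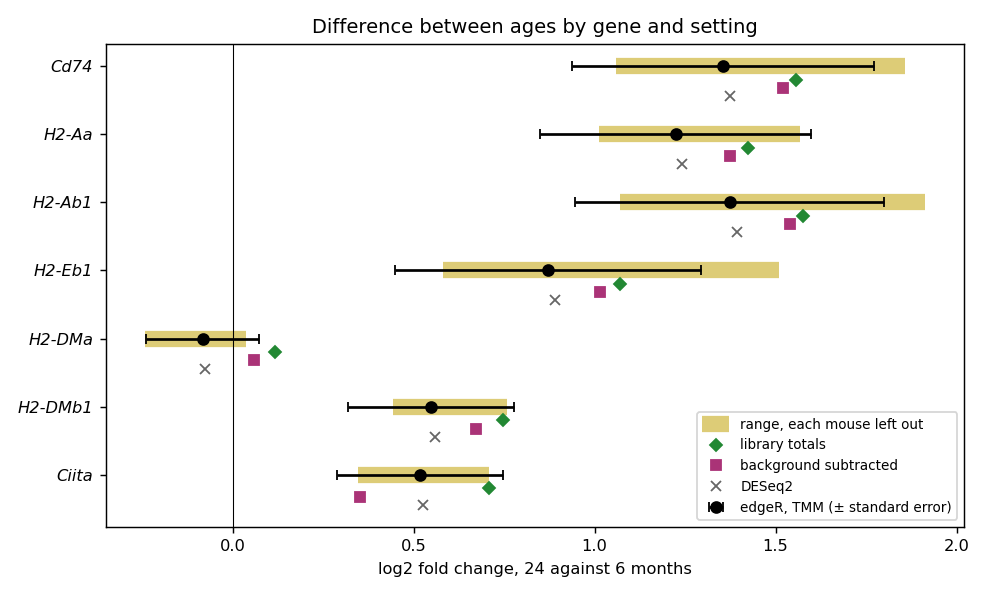
Log2 fold change (24 against 6 months) of the 7 genes in the edgeR fit with TMM scaling (black, ± standard error), with library totals (green), with background subtracted (purple) and in DESeq2 (grey), and the range with each mouse left out in turn (yellow). Cd74, H2-Aa and H2-Ab1 stay above 1 in each of these settings, and H2-DMa lies on both sides of 0.

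Summed over the 7 genes, the level was 49.3, 56.0 and 89.9 TPM in the 6-month mice 10, 11 and 17 and 175.8, 160.9 and 73.9 TPM in the older mice 2, 4 and 5. The mean difference on the log2 scale was 1.02, or 2.03-fold, with a pooled SD of 0.58 between mice of an age. It was 0.75 for the sum of TMM-scaled CPM and 0.60 for the summed TPM without Cd74. With each mouse left out, the difference in summed TPM ran from 0.79 to 1.42. Cd74 alone made up 31.7% to 51.5% of the sum at 6 months and 51.4% to 62.6% at 24 months.

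By mean level per length, the order at both ages was Cd74, H2-DMa, H2-Ab1, H2-DMb1, H2-Eb1, H2-Aa and Ciita. Neighbours were not always apart. Cd74 exceeded H2-DMa in 2 of 3 libraries at 6 months and in 3 of 3 at 24 months, H2-Ab1 exceeded H2-DMb1 in 1 of 3 and in 3 of 3, and H2-Eb1 exceeded H2-Aa in 2 of 3 at each age. The other neighbours kept their order in all libraries. By mean TPM among all 55421 genes, Cd74 ranked 5530 at 6 months and 2255 at 24 months, whereas H2-DMa ranked 7077 and 6830 and Ciita 21305 and 21239.

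The other class II genes were sparse. H2-Ob had 0.464, 0.324 and 0.280 TPM at 6 months and 0.633, 0.859 and 0.644 TPM at 24 months, so the ages did not overlap. All 24-month libraries were above all 6-month libraries for 25.8% of all genes tested in TPM and for 20.0% in CPM. Above 1 CPM the share in CPM was 5.32%, so below 1 CPM it exceeded 20.0%. For H2-Ob the fit gave 0.89 on the log2 scale with a standard error of 0.29 (adjusted p = 0.0832, edgeR quasi-likelihood test), from 14 to 42 counts per library of which 3.7 to 14.9 were expected as background. With that background taken off the log2 fold change was 0.72, and its unadjusted p was above 0.05. H2-Oa, the other chain of H2-DO, was at 0.29 (adjusted p = 0.60) and H2-DMb2, a second DM β chain, at 0.64 (adjusted p = 0.206, both in the same test). H2-Eb2, a second E β chain, had 3, 1 and 1 counts against 11, 11 and 4, with up to 9.4 expected as background. H2-Ea, the chain that the b haplotype lacks, had 0, 0 and 1 counts against 2, 6 and 5, with 0.7 to 0.9 and 1.9 to 2.9 expected as background. Of these 5 genes, all with a mean below 1 CPM, 3 were called higher at 10% FDR and 0 at 1% FDR by the quasi-likelihood test of edgeR. At 10% FDR, 10.0% of all genes and 2.43% of those above 1 CPM were called higher, so the share below 1 CPM exceeded 10.0%. Background subtraction left 3 of the 5 with enough counts to test. None of them then had an unadjusted p under 0.05, where 6.53% of the genes tested in that way were higher.

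All of these genes other than Cd74 and Ciita lie in the class II region of chromosome 17, here taken from 34092340 to 34344645 (GRCm38, GENCODE vM21). It held 18 genes tested, of which 10 encode class II chains, the genes above included. Of the class II genes 9 were fitted higher and 6 were higher at an unadjusted p under 0.05. The shares higher in this way were 17.6% of all genes tested and 4.23% of those above 1 CPM. The 5 other protein-coding genes in the interval were all above 1 CPM, and they are too few to set against either share. Of them 4 were fitted higher and 1 was higher at an unadjusted p under 0.05. That gene was Psmb9, an immunoproteasome subunit that serves class I presentation, with 1.25 ± 0.174 TPM at 6 months and 2.23 ± 0.350 TPM at 24 months (SD, n = 3) and a log2 fold change of 0.72 (adjusted p = 0.0697, edgeR quasi-likelihood test). In CPM it was higher in all 24-month mice than in all 6-month mice, as were 5.32% of genes above 1 CPM. Its neighbours Tap1, Psmb8 and Tap2, also of the class I pathway, were at 0.55, 0.29 and 0.24, and Brd2, a bromodomain gene, was at -0.19.

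**Figure D3:**
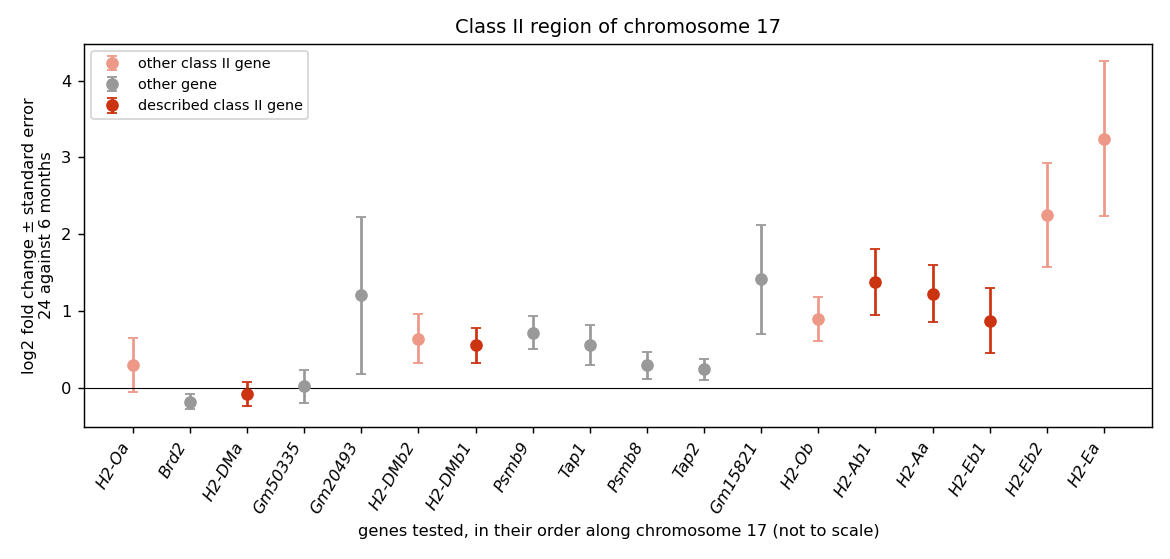
Log2 fold change (24 against 6 months, ± standard error) of the 18 genes tested in the class II region, in their order along chromosome 17 and not to scale. Among the class II genes (red and light red), H2-DMa lies at -0.08 and H2-Ab1 at 1.37, and the fitted values of H2-Eb2 and H2-Ea rest on 31 and 14 counts in all. The other genes are grey, with Brd2 at -0.19.

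For the proteins on which Ciita docks, the fitted values were mostly below 0. Of the 7 genes of the RFX, NF-Y and CREB proteins (Rfx5, Rfxank, Rfxap, Nfya, Nfyb, Nfyc and Creb1), 0 were higher and 1 was lower at an unadjusted p under 0.05 (background 13.1% lower). The lower gene was Nfya, a subunit of NF-Y, at -0.39 on the log2 scale (adjusted p = 0.0911, edgeR quasi-likelihood test), which also passed 10% FDR (background 8.33% lower). With library totals it was at -0.20, with an unadjusted p above 0.05. Rfx5, the DNA-binding subunit of RFX, was at -0.29 (adjusted p = 0.197, same edgeR test). The median of the list was -0.20 and became -0.003 with library totals, against medians of -0.14 and 0.05 over genes above 1 CPM.

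Along the path from interferon gamma to Ciita, 9 of 10 genes could be tested. Ifng itself had 0 counts in every 6-month library and 2, 1 and 0 in the 24-month mice 2, 4 and 5, where 2.3 to 3.6 counts were expected as background. Its receptor chain Ifngr2 was at -0.30 (adjusted p = 0.0727) and the kinase Jak1 at -0.46 (adjusted p = 0.0552, both log2 fold changes in edgeR's quasi-likelihood test). These 2 genes were the only ones of the list with an unadjusted p under 0.05, where 13.1% of all genes tested were lower and 17.6% higher. The median over genes above 1 CPM was itself -0.14. With library totals Ifngr2 and Jak1 were at -0.11 and -0.27, and that median was 0.05. Ifngr1 and Irf1 were at -0.11 and 0.04, and the myeloid factors Irf8 and Spi1 at 0.24 and 0.22.

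The genes that process the invariant chain and turn class II over were mostly abundant. At an unadjusted p under 0.05, 0 of the 11 tested were higher and 3 were lower, against 17.6% and 13.1% of all genes. Of genes above 1 CPM, as nearly all of these were, only 4.23% were higher, so 0 of 11 is near that share. Ctss, the main protease of the invariant chain in myeloid cells, had 266.7 ± 16.0 TPM at 6 months and 320.5 ± 42.1 TPM at 24 months (SD, n = 3), a log2 fold change of 0.15 (adjusted p = 0.372, edgeR quasi-likelihood test). The lower genes were Marchf1, a ubiquitin ligase that removes class II from the surface, at -0.44 (adjusted p = 0.0564), Sppl2a, which cleaves the last membrane fragment of the invariant chain, at -0.38 (adjusted p = 0.0779), and the protease Ctsl at -0.23 (adjusted p = 0.152). With library totals these 3 stood at -0.24, -0.19 and -0.04 and none had an unadjusted p under 0.05, and the median of the list turned from -0.10 to 0.10. Over genes above 1 CPM the median likewise turned from -0.14 to 0.05.

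Among 6 genes of costimulation and of Cd74 partners, Cd40 had 0.517 ± 0.0655 TPM at 6 months and 0.928 ± 0.139 TPM at 24 months (SD, n = 3). The ages did not overlap, and 25.8% of all genes tested were higher in this way in TPM. The log2 fold change of Cd40 was 0.73 (adjusted p = 0.111, edgeR quasi-likelihood test) with an unadjusted p under 0.05. Taking off the background left 0.67, with an unadjusted p above 0.05. Cd80 and Cd86, the ligands of CD28, were at -0.03 and 0.14. Mif, the cytokine ligand of Cd74, was at -0.24 (adjusted p = 0.157, same edgeR test) and at -0.04 with library totals.

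Markers of the cell types that can carry class II were compared library by library. The 10 microglia markers summed to 666.9 to 671.7 TPM at 6 months and to 692.2 to 749.4 TPM at 24 months, a far smaller spread than that of the class II genes. Among them Tmem119 was at 0.34 (adjusted p = 0.0684) and Csf1r at -0.34 (adjusted p = 0.0646, both log2 fold changes in edgeR's quasi-likelihood test). Per 100 TPM of microglia markers, Cd74 stood at 2.33, 3.83 and 6.93 TPM at 6 months and at 14.97, 14.3 and 5.07 TPM at 24 months, so the overlap of mouse 5 with mouse 17 was kept. Markers of border macrophages (8 genes, 0 with an unadjusted p under 0.05) summed to 11.5, 16.1 and 20.7 TPM at 6 months (mice 10, 11 and 17) and to 13.3, 26.6 and 15.8 TPM at 24 months (mice 2, 4 and 5). At 6 months these sums rose in the same order of mice as Cd74. At 24 months mouse 4 was the highest in these markers, and mouse 2, highest in Cd74, was the lowest of its age. The part of these cells in the Cd74 level was not tested.

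Several markers of other leukocytes rest on few counts, and most B cell, T cell and monocyte markers had a mean below 1 CPM. At an unadjusted p under 0.05, 4.23% of genes above 1 CPM were higher, so the share below 1 CPM exceeded 17.6%. In B cells and plasma cells 7 of 9 genes tested were higher at an unadjusted p under 0.05, against 17.6% of all genes, and the 10 listed genes summed to 1.53, 2.13 and 3.08 TPM at 6 months and to 7.85, 19.9 and 5.94 TPM at 24 months. The value of mouse 4 was mostly Iglc1, a light chain constant gene, with 11.6 TPM in that library. The B cell gene Ms4a1, which encodes CD20, had 1, 2 and 4 counts in the 6-month libraries and 28, 23 and 14 in the 24-month libraries. The expected background was 4.2 to 5.1 counts at 6 months and 11.2 to 17.1 at 24 months. At 6 months it exceeded the counts found, so the background is overestimated for this gene there. Ms4a1 was at 3.11 on the log2 scale (adjusted p = 0.0518, edgeR quasi-likelihood test). In T cells 6 of 9 genes were higher (17.6% of all genes), and their sum was 4.29 to 5.36 TPM at 6 months and 6.43 to 9.81 TPM at 24 months. With the background taken off, 4 of 7 B cell genes and 2 of 6 T cell genes were higher at an unadjusted p under 0.05, against 6.53% of all genes.

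The dendritic cell list had 3 genes higher and 1 lower of 8 at an unadjusted p under 0.05, against 17.6% and 13.1% of all genes. With the background taken off it had 1 higher (6.53% of all genes) and 0 lower. Itgax, which encodes CD11c and is also found on microglia, had 4, 5 and 5 counts against 15, 18 and 15, of which 3.3 to 4.0 and 8.7 to 13.3 were expected as background, a log2 fold change of 1.71 (adjusted p = 0.0518, edgeR quasi-likelihood test). The list's sums of 28.5 to 33.3 TPM at 6 months and 31.0 to 39.8 TPM at 24 months overlapped. Much of them was the lower gene, Zbtb46, with means of 14.7 TPM at 6 months and 12.6 TPM at 24 months. Its log2 fold change was -0.34 (adjusted p = 0.125, edgeR quasi-likelihood test). The higher genes Itgax, Xcr1 and Ccr7 had means below 1 TPM at each age and weigh little in the sums. Monocyte markers had 3 of 6 genes higher at an unadjusted p under 0.05 (17.6% of all genes), namely Ccr2, Ly6c2 and Plac8. With the background taken off, 2 of the 5 that could be tested were higher, and Ly6c2 had too few counts left to test. These markers summed to 4.20 to 5.23 TPM at 6 months and to 3.11, 11.6 and 10.3 TPM in the 24-month mice 2, 4 and 5, so that mouse 2 was the lowest of all libraries. At 6 months the sum was mostly S100a8 and S100a9, with means of 2.78 and 0.961 TPM. In mouse 2 they were at 0.846 and 0 TPM. The other 4 genes (Ccr2, Ly6c2, Plac8 and Chil3) were above all 6-month mice in every 24-month mouse, mouse 2 included. In TPM this was so for 25.8% of all genes tested. Markers at 0 counts in at least 1 library of 6 months were Ly6c2, Blk, Mzb1, Iglc1, Cd3g and Cd8a, and at 24 months S100a9 and Mzb1. The part of these cells in the class II values was not tested.

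**Figure D4:**
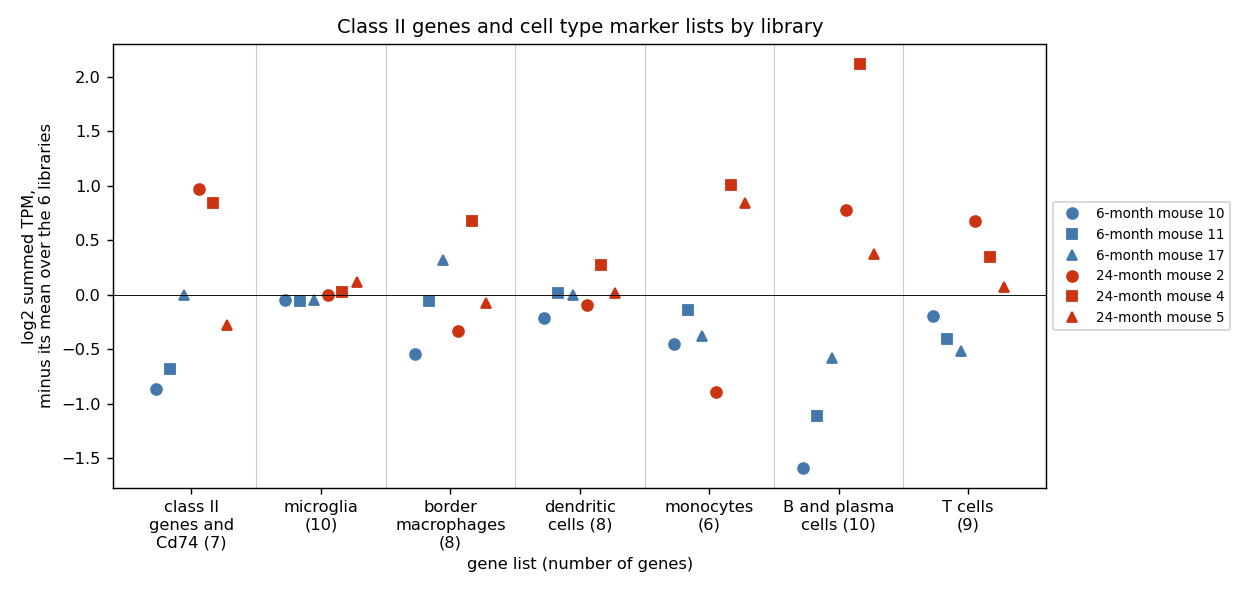
Log2 of the summed TPM of the 7 class II genes and of 6 marker lists in each library, minus the list's mean over the 6 libraries, with 6-month mice in blue and 24-month mice in red. The class II sum is highest in the 24-month mice 2 and 4, the microglia sum stays near 0, the B and plasma cell sum is highest in mouse 4, and the monocyte sum is lowest in mouse 2. The low monocyte sum of mouse 2 comes with S100a8 and S100a9 at their lowest 24-month levels.

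Markers of tissue at the borders of the cortex overlapped between the ages. Meninges and fibroblasts (7 genes), choroid plexus (6) and endothelial cells (6) had 0 genes with an unadjusted p under 0.05, and their summed levels overlapped. Choroid plexus markers ran from 42.8 to 119.2 TPM at 6 months and from 54.9 to 123.7 TPM at 24 months. The cortical neuron markers, at 3599 to 4811 TPM summed over 8 genes in each library, were those of the labelled tissue. Red blood cell markers were lower in 3 of 5 genes and cortical neuron markers in 4 of 8 at an unadjusted p under 0.05, against 13.1% of all genes, and with library totals in 0 of either list. The median log2 fold change over genes above 1 CPM was itself -0.14 after TMM scaling and 0.05 with library totals.

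The genes whose profile over the 6 libraries was nearest to the mean profile of the 7 class II genes were sought among 15754 other genes above 1 CPM. The distance was the root mean square difference of log2 CPM, each gene centred on its own mean. The nearest were Gm43466 at 0.16, Gm49413 at 0.16, Cdkn1c at 0.16, Gm34391 at 0.17, Bbox1 at 0.17 and Zfp185 at 0.18. Of the class II genes themselves, H2-DMb1 and H2-Aa lay at 0.24, H2-Eb1 at 0.25, H2-Ab1 at 0.36, Cd74 at 0.38, Ciita at 0.39 and H2-DMa at 0.56 from that mean. The 6 nearest genes had log2 fold changes between 0.53 (Cdkn1c) and 1.05 (Gm34391), none past 1% FDR. With 6 libraries, many of 15754 genes can lie near any 1 profile.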

How the data were processed

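Per the labels and the study's methods, the authors checked 75-base reads with FastQC 0.11.8, trimmed them with Trim Galore 0.6.4, mapped them to GRCm38 with STAR 2.7.3a and counted them on GENCODE vM23 exons with featureCounts (Subread 2.0.0). They deposited 1 whole-number count per gene and mouse, used here as deposited. The stated options give multi-mapped reads as fractions, yet every value is whole, so how reads shared by paralogous class II genes were counted is not settled. The deposited TPM values, which the authors computed from counts and exonic length, were used for levels. edgeR 4.0.16 (R 4.3.3) was run with TMM scaling and a minimum of 10 counts over the 6 libraries. The study names edgeR but no test within it, so the quasi-likelihood test was taken. The 14 alternatives included DESeq2 1.42.0, other scalings and filters, background subtraction and each mouse left out. Positions are those of GENCODE vM21. Replicates are separate mice. The genes, marker lists and tests were chosen with earlier results of these data known. Genes named by rule were the 7 genes, listed genes with an unadjusted p under 0.05, up to 4 of highest mean TPM per list, and the 6 of nearest profile. Other genes were named after their values were seen. Where every library of an age was at 3 counts or fewer, counts are given in the text and no fold. Python 3.11.15 was used for other steps. Some listed genes are not reported here by name.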

Additional observations from a re-analysis of the deposited data

How the results depend on the processing

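No paired analysis was possible because the mouse numbers are not shared between the ages. Cd74, H2-Aa, H2-Ab1, H2-Eb1, H2-DMb1 and Ciita were fitted higher at 24 months under all 14 alternatives. The log2 fold change of H2-DMa, -0.08, took the other sign with library totals (0.12), with filterByExpr (0.035), with background subtracted (0.059) and without the 24-month mouse 5 (0.037). Its values with 1 mouse left out lay between -0.24 and 0.037. The cause was not tested. Of the 7 genes, 3 passed 10% FDR in the quasi-likelihood test, 1 in DESeq2 (H2-Aa), 5 with library totals, 0 with filterByExpr and 0 with background subtracted, and 0 to 5 with each mouse left out. Over all genes, 6040 passed 10% FDR in the quasi-likelihood test, 2752 in DESeq2, 4439 with library totals, 1538 with filterByExpr, 28 of 25508 with background subtracted, and 0 to 7998 with 1 mouse left out (0 when it was mouse 10 or mouse 4). None of the 7 passed 1% FDR in any alternative. Over all genes, 0 passed 1% FDR, against 1703 by the likelihood ratio test, 1122 by the exact test, 278 by DESeq2, 42 with no filter and 0 to 13 with each mouse left out. Over the alternatives the adjusted p lay between 0.0191 and 0.251 for Cd74, 0.0218 and 0.254 for H2-Aa, 0.0215 and 0.254 for H2-Ab1, and 0.0999 and 0.596 for Ciita. With each mouse left out, the log2 fold change of Cd74 ran from 1.06 to 1.86, that of H2-Aa from 1.01 to 1.57, that of H2-Ab1 from 1.07 to 1.91, that of H2-Eb1 from 0.58 to 1.51, that of H2-DMb1 from 0.44 to 0.76 and that of Ciita from 0.35 to 0.71. Depth limits H2-Eb2, H2-Ea, Itgax and Ms4a1, for which the expected background is a large part of the 24-month counts.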
